A study of Mus musculus with 6 samples.

Results

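The genes described here encode Irg1, the enzyme that makes itaconate, and 8 enzymes that work in or beside the tricarboxylic acid (TCA) cycle: Aco1, Cs, Idh1, Idh2, Idh3a, Ogdh, Fh1 and Mdh2. Irg1 is also called Acod1. They were taken by the gene name of the array's probes, whatever their values, and are 9 of the 28312 named genes on the array, with 12 of its 39429 probes. All 9 were well above background on all 6 arrays and were among the 16365 genes tested.

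RNA was measured on 6 single-colour microarrays. Heart 1, heart 2 and heart 4 are myeloid cells of the infarcted left ventricle, and spleen 1, spleen 2 and spleen 4 are myeloid cells of the spleen. Every sample came from a C57BL/6N wild-type mouse 3 days after acute myocardial infarction, so the spleens are those of infarcted animals too, and uninjured hearts or spleens were not analysed here. Both tissues went through the same flow cytometry gate, which took cells with high CD45 and CD11b and low staining for Ly6G on neutrophils, CD45R/B220 on B cells, CD90.2/Thy-1.2 on T cells and both CD49b/DX5 and NK-1.1 on natural killer cells. The gate holds several myeloid cell types, and each value is an average over them. Spleens and ventricles were analysed individually. The labels give no age or sex and do not say whether same-numbered samples share an animal, so p-values measure the spread between these samples.

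The TCA cycle oxidises acetyl groups in the mitochondrion. Citrate synthase makes citrate, aconitase turns it into isocitrate by way of cis-aconitate, and isocitrate dehydrogenase and the 2-oxoglutarate dehydrogenase complex release carbon dioxide before succinate, fumarate and malate are passed on to oxaloacetate. Irg1 removes a carboxyl group from cis-aconitate and so draws on the cycle. Its gene is strongly induced in macrophages by Toll-like receptor ligands and interferons, and its product itaconate inhibits succinate dehydrogenase.

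The promoters of Irg1 and of a cycle enzyme, Mdh2, are printed to show how unlike they are in base composition. Each is the 250 bases before the RefSeq transcription start in the GRCm38.p6 build, 5′ to 3′, with CG dinucleotides in capitals. Irg1 lies at chr14:103046762-103047011 on the plus strand and Mdh2 at chr5:135778399-135778648 on the plus strand.
Irg1: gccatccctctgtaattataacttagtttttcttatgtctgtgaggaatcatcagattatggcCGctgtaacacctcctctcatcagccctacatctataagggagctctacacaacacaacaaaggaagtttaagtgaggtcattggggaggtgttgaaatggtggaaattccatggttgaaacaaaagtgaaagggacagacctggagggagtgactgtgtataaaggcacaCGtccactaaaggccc
Mdh2: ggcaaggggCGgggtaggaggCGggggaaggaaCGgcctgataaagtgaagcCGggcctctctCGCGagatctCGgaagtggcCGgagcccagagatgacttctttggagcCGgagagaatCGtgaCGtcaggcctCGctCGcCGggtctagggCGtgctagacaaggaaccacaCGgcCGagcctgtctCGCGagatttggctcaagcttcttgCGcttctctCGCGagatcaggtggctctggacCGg
The Irg1 promoter had a GC content of 44.4% and 2 CG dinucleotides, and that of Mdh2 63.2% and 23. RefSeq promoters were matched for 8 of the 9 genes, 14 promoters in all. The 13 promoters other than that of Irg1 held between 50% and 74.0% GC and between 9 and 35 CG dinucleotides. Ogdh alone gave 6 of these, several of them overlapping, and both ends of each range were among them. Over 32841 mouse promoters of this length the median was 52.4% GC and 6 CG dinucleotides, and 29.0% had no more of them than Irg1.

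Of the 6 motifs looked for on both strands, the Irg1 promoter held TATAAA, the TATA box, starting 28 bases before the transcription start. It also held ACGTG, the core that hypoxia-inducible factors bind, on the opposite strand, starting 18 bases before the start. TATAAA was present in 12.4% of all promoters and in none of the other 13 promoters. ACGTG was present in 16.6% of all promoters and, among the other genes, in those of Ogdh. Neither match overlapped the other. The motifs TGANTCA (AP-1 type, in 6.75% of all promoters), TTCNNNGAA (STAT type, 7.02%), a NF-kB motif (0.356%) and an interferon-response motif (2.98%) were not found in the promoters of these genes.

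The spleen samples differed among themselves in markers of other cells and in proliferation genes, spleen 1 and spleen 4 in different ones. The mean log2 level of the B cell markers was 3.16 in spleen 1, against -1.25 in spleen 2 and -1.93 in spleen 4, where a level is the log2 signal minus the 75th percentile of its array. T cell markers averaged 2.75 in spleen 1, -0.52 in spleen 2 and -1.40 in spleen 4, and natural killer and erythroid markers were likewise highest in spleen 1. In spleen 4 the neutrophil markers averaged 3.01, against 4.73 in spleen 1 and 5.31 in spleen 2, and the proliferation genes -0.094, against 1.67 and 2.82 in those samples. Across tested genes the heart arrays correlated at 0.991 to 0.994 with each other and the spleen arrays at 0.937 to 0.960. The slides also divide the samples: heart 1 and spleen 4 shared slide 2, heart 2 and heart 4 were on slide 3, and spleen 1 and spleen 2 on slide 1. Between 52.8% and 63.6% of probes on an array were well above background, no spot was saturated, and the 75th percentile of signal lay between 1451 and 1870 intensity units. All 12 markers of macrophages and monocytes were well above background on every array. Itgam, which encodes the sort marker CD11b, had log2 levels of 4.18, 3.93 and 4.10 in heart 1, heart 2 and heart 4, against 3.77, 4.41 and 3.93 in spleen 1, spleen 2 and spleen 4.

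The comparison asked how these genes differed between myeloid cells of the infarcted heart and of the spleen. A gene was called where limma gave it an adjusted p (Benjamini-Hochberg, over all tested genes) below 0.05. By that rule 0 of the 9 genes were called, in either direction, where 15.4% of all genes were. With 1 sample left out, the share of all genes called ranged from 2.94% without heart 1 to 24.5% without spleen 4. It was 3.06% without heart 2 and 3.14% without heart 4. An unadjusted p under 0.05 was found for 3 of the 9 (Irg1, Aco1 and Idh3a), against 31.6% of all genes. The fold change was positive, that is higher in heart, for 7 and negative for 2 (Idh1 and Fh1). The median log2 fold change was 0.43, against 0.10 for all genes, and the median size regardless of sign was 0.43 against 0.41. With quantile scaling the median of the 9 was 0.11, with 6 positive and 3 negative, against 0.037 for all genes. Heart and spleen samples did not overlap for 5 of the 9 genes, all 5 higher in heart. Over all genes, samples did not overlap for 40.7%, with 24.1% higher in heart.

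Irg1 had the largest difference of the 9 and the widest interval. Its log2 levels were 0.77, -0.68 and -0.38 in heart 1, heart 2 and heart 4, against -0.79, -3.79 and -4.23 in spleen 1, spleen 2 and spleen 4. All 3 heart samples were above all 3 spleen samples, but spleen 1 lay just under heart 2 and far above the other spleens. The mean was -0.098 ± 0.77 in heart and -2.94 ± 1.87 in spleen (SD, n = 3 each). The log2 fold change was 2.84 ± 0.93 (SE, limma), 7.17-fold, with a 95% interval from 1.53-fold to 33.6-fold, an unadjusted p of 0.0200 and an adjusted p of 0.0909. In these bulk samples, fewer cells carrying a transcript and less of it per cell cannot be told apart.

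The call for Irg1 depended on the samples and on the scaling. Without spleen 1 the log2 fold change was 3.92 and the adjusted p 0.00789. Scaling the arrays by their median in place of the 75th percentile gave 2.97 with an adjusted p of 0.0439, while that scaling put the median of all genes at 0.22. Within the samples with the earlier date in their titles (replicates 1 and 2) the difference was 2.34, and between heart 4 and spleen 4, of the later date, it was 3.85. On slide 2, the only slide with both tissues, heart 1 was 5.0 above spleen 4. With slide as a fixed block the difference between the tissues therefore rests on these 2 arrays alone, and for Irg1 the adjusted p was 0.196.

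The probe for Irg1 (chr14:103455171-103455231 in mm9, plus strand) was printed as 10 spots on each array, which gives the spread within an array. The median processed signal, before scaling, was 2562 intensity units in heart 1, 896 in heart 2 and 1294 in heart 4, against 1080 in spleen 1, 115 in spleen 2 and 86.0 in spleen 4. Before scaling, spleen 1 thus lay above heart 2. Relative to the 75th percentile, 1870 units in spleen 1 and 1451 in heart 2, this order was reversed. The absence of overlap for Irg1 therefore holds for the scaled levels only. The SD of the log2 signal among spots was 0.032 to 0.062 on the heart arrays and 0.038 to 0.19 on the spleen arrays. This spread is technical, within an array, and does not bear on differences between samples. Every usable spot was well above background, also in spleen 4, where single spots ran from 72.9 to 116 units.

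**Figure D1:**
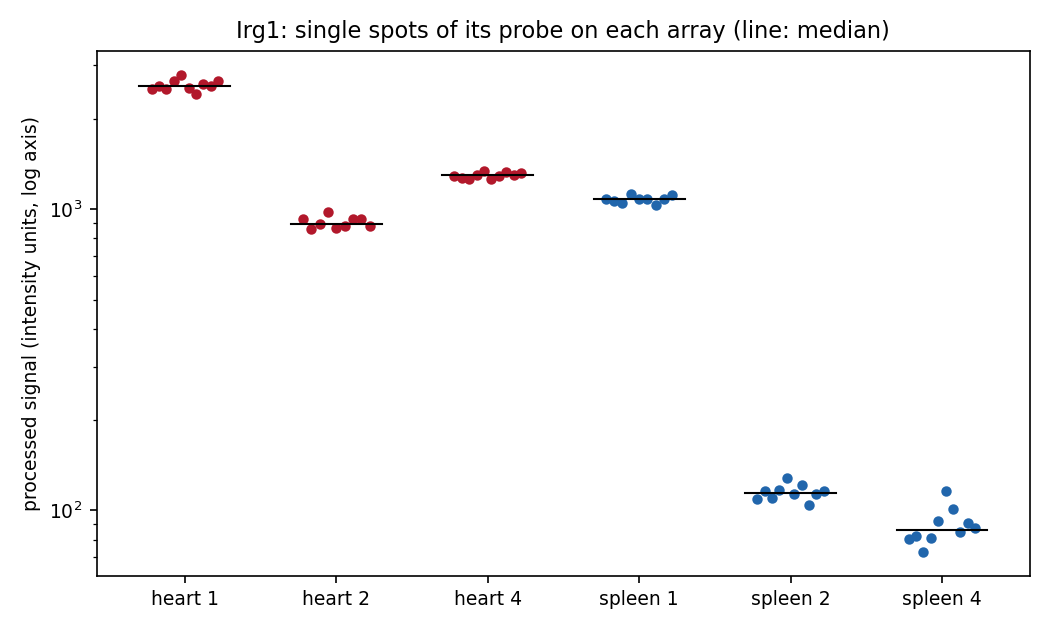
Processed signal (intensity units, log axis) of each usable spot of the Irg1 probe on each array, with the median as a line. The spots of spleen 1 lie among those of the heart arrays, around 1080, and those of spleen 2 and spleen 4 lie at about 115 and 86.0.

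Markers of other cells moved along with this difference, and their part in the Irg1 result was not tested. Neutrophils also express Irg1 when activated. Over all genes, 8.88% were called higher and 6.52% lower in heart. Of 16 neutrophil markers, 0 were called higher and 10 lower in heart, with a median log2 fold change of -4.56. Their summed signal was 122872 to 133461 units in heart and 1011040 to 2360220 units in spleen. Of these markers, Ngp was well above background in 1 heart sample and Cxcr2 in 2. Both were thus tested through the spleen arrays alone, which favoured a lower level in heart. The 5 tested B cell markers summed to 1244 to 2268 units in heart and 6162 to 207134 units in spleen, with the top value in spleen 1. Among the 12 macrophage and monocyte markers, 4 were called higher and 0 lower, with a mean log2 level of 5.11, 5.18 and 5.20 in heart 1, heart 2 and heart 4, against 2.91, 3.43 and 3.96 in spleen 1, spleen 2 and spleen 4. Their mean and the scaled level of Irg1 were both higher in every heart than in any spleen. Among the spleens Irg1 was highest in spleen 1, where the mean of these markers was lowest.

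The genes whose pattern over the 6 arrays was most like that of Irg1 were Nol11, a nucleolar protein of ribosome production, Cbwd1, a COBW domain protein, LOC100047875, Syvn1, a ubiquitin ligase of the endoplasmic reticulum, and Ppa1, the cytosolic inorganic pyrophosphatase. Their Pearson correlations with Irg1, the measure by which they were picked from 14660 genes, were 0.993, 0.992, 0.983, 0.982 and 0.979 over 6 arrays of 2 tissues. Nol11 had log2 levels of 0.21, -0.13 and 0.029 in heart 1, heart 2 and heart 4, against -0.14, -0.63 and -0.68 in spleen 1, spleen 2 and spleen 4. As for Irg1, spleen 1 was close to heart 2. Its log2 fold change was 0.52, much smaller than that of Irg1, and its adjusted p 0.16.

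Citrate synthase and aconitase open the cycle. Cs, which joins acetyl-CoA to oxaloacetate, had log2 levels of 4.67, 4.65 and 4.64 in heart 1, heart 2 and heart 4, against 4.19, 4.77 and 4.93 in spleen 1, spleen 2 and spleen 4 (probe at chr10:127799428-127799487, mm9). The heart values were nearly equal and fell inside the range of the spleens. The log2 fold change was 0.027 ± 0.23 (SE), with an interval from 0.69-fold to 1.5-fold and an adjusted p of 0.952. Its sign depended on the scaling: quantile scaling gave -0.36, and leaving out spleen 1 gave -0.19.

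Aco1, the cytosolic aconitase that becomes an iron-responsive RNA-binding protein when it loses its iron-sulphur cluster, was measured by a probe at chr4:40145780-40145839 (mm9). Its log2 levels were -3.48, -3.50 and -3.43 in heart 1, heart 2 and heart 4, against -4.79, -4.16 and -3.88 in spleen 1, spleen 2 and spleen 4. All hearts were above all spleens, and the SD of the hearts was 0.034. The difference was 1.75-fold, with an interval from 1.13-fold to 2.70-fold, a log2 fold change of 0.81 ± 0.26 (SE) and an adjusted p of 0.0882. Without spleen 4 it was 1.01 with an adjusted p of 0.0319, and between heart 1 and spleen 4, which shared a slide, it was 0.40.

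**Figure D2:**
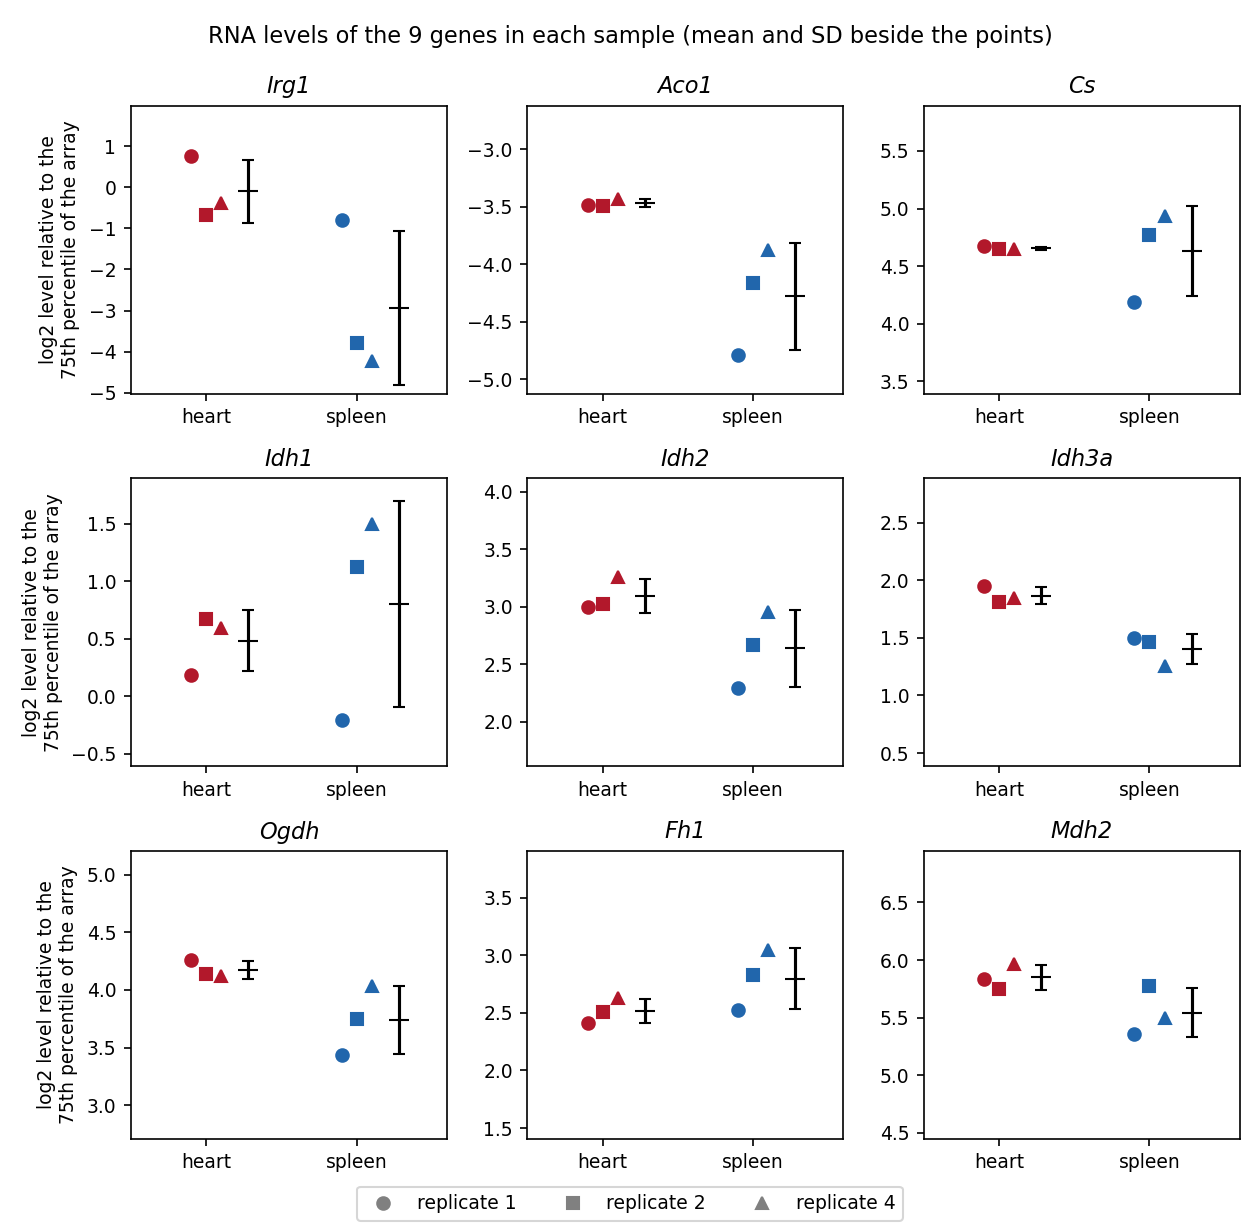
Log2 level (relative to the 75th percentile of the array) of each gene in the 3 heart samples (red, left) and the 3 spleen samples (blue, right), with the mean and SD in black. The axis spans 7 log2 units for Irg1 and 2.5 for the other genes, so the Irg1 difference of 2.84 is drawn at a smaller scale. Spleen points spread more widely than heart points in all 9 panels.

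The isocitrate dehydrogenases turn isocitrate into 2-oxoglutarate, and the differences of these 3 genes did not share a sign. Idh3a encodes the catalytic subunit of the mitochondrial NAD-dependent enzyme of the cycle. It had log2 levels of 1.95, 1.81 and 1.85 in heart 1, heart 2 and heart 4, against 1.5, 1.46 and 1.26 in spleen 1, spleen 2 and spleen 4 (probe at chr9:54451368-54451427, mm9). The groups did not overlap, and the log2 fold change was 0.46 ± 0.17 (SE), 1.38-fold with an interval from 1.04-fold to 1.82-fold, with an adjusted p of 0.115. The other subunits of that enzyme, Idh3b and Idh3g, differed by 0.10 ± 0.21 and -0.094 ± 0.21 (SE, log2), with adjusted p of 0.786 and 0.796, and are named after their values were seen.

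Idh2, the mitochondrial NADP-dependent enzyme (probe at chr7:87239736-87239795, mm9), had log2 levels of 3.00, 3.02 and 3.26 in heart 1, heart 2 and heart 4, against 2.29, 2.67 and 2.95 in spleen 1, spleen 2 and spleen 4. The groups did not overlap, although spleen 4 came within 0.042 of heart 1, which shared its slide. Its difference was 0.45 ± 0.22 (SE, log2), with an adjusted p of 0.222, and 0.21 with quantile scaling. Idh1, the NADP-dependent enzyme of cytosol and peroxisomes (probe at chr1:65206035-65206094, mm9), had log2 levels of 0.18, 0.67 and 0.59 in heart 1, heart 2 and heart 4, against -0.21, 1.12 and 1.5 in spleen 1, spleen 2 and spleen 4. Spleen 1 was the lowest of the 6 samples and spleen 4 the highest. The log2 fold change was -0.32 ± 0.45 (SE), with an interval from 0.38-fold to 1.69-fold and an adjusted p of 0.673, and it was 0.026 without spleen 4.

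Ogdh encodes the E1 subunit of the 2-oxoglutarate dehydrogenase complex and was measured by 3 probes. The brightest (chr11:6256511-6256570, mm9) had log2 levels of 4.26, 4.14 and 4.12 in heart 1, heart 2 and heart 4, against 3.44, 3.75 and 4.03 in spleen 1, spleen 2 and spleen 4. The groups did not overlap, but spleen 4 was close to the hearts. This probe gave a difference of 0.43 ± 0.21 (SE, log2) and an adjusted p of 0.208, and 0.11 with quantile scaling. The neighbouring probe (chr11:6256583-6256642) gave 0.37 ± 0.20 (SE). The third probe (chr11:6258910-6258969) gave 0.13 ± 0.28 (SE), and there spleen 4 was the highest of the 6 samples, so the absence of overlap did not extend to it.

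Fh1, fumarase, which turns fumarate into malate, had a negative difference on both of its probes. Its brightest probe is shown because its ends lie 2431 bases apart on chr1:177531659-177534089 (mm9, minus strand), though it is 60 bases long. Such a gap would arise where a probe crosses an intron, but exon positions were not looked up.
Fh1 probe: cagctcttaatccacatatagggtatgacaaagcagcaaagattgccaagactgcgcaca
With it, the log2 levels of Fh1 were 2.41, 2.51 and 2.63 in heart 1, heart 2 and heart 4, against 2.52, 2.83 and 3.04 in spleen 1, spleen 2 and spleen 4. Only spleen 1 overlapped the hearts. The log2 fold change was -0.28 ± 0.20 (SE), with an interval from 0.59-fold to 1.14-fold and an adjusted p of 0.384, and a second probe (chr1:177531530-177531589) gave -0.26 ± 0.20 (SE). With quantile scaling the difference was -0.50. Mdh2, the mitochondrial malate dehydrogenase that closes the cycle (probe at chr5:136266157-136266216, mm9), had log2 levels of 5.83, 5.75 and 5.97 in heart 1, heart 2 and heart 4, against 5.35, 5.78 and 5.50 in spleen 1, spleen 2 and spleen 4. Spleen 2 overlapped the hearts. Heart minus spleen was 0.31 ± 0.19 (SE, log2) with an adjusted p of 0.314, and 0.0029 with quantile scaling.

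Of the 13 other genes of the cycle, 0 were called and 0 had an unadjusted p under 0.05 in limma. Their differences were positive for 10 and negative for 3, with a median log2 fold change of 0.19. The brightest, Sdhb, the iron-sulphur subunit of the succinate dehydrogenase that itaconate inhibits, had log2 levels of 5.47, 5.37 and 5.52 in heart 1, heart 2 and heart 4, against 4.52, 5.14 and 5.38 in spleen 1, spleen 2 and spleen 4. Spleen 4 overlapped the hearts, and the log2 fold change was 0.44 ± 0.25 (SE) with an adjusted p of 0.29. Across these 13 and the 8 enzymes above, 21 cycle genes in all, log2 fold changes ran from -0.32 (Idh1) to 0.81 (Aco1). These genes at both ends, Idh1 and Aco1, encode enzymes outside the mitochondrion, beside the cycle. Without them, and with the others not sorted by location, the range was -0.31 (Suclg2) to 0.51 (Sdhc). The 95% interval lay within 2-fold either way for 16 of the 21, against 44.4% of all genes. It reached beyond 2-fold for Aco1, Idh1, Suclg2, Sdhb and Sdhc, of which the last 3 are named after their values were seen.

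**Figure D3:**
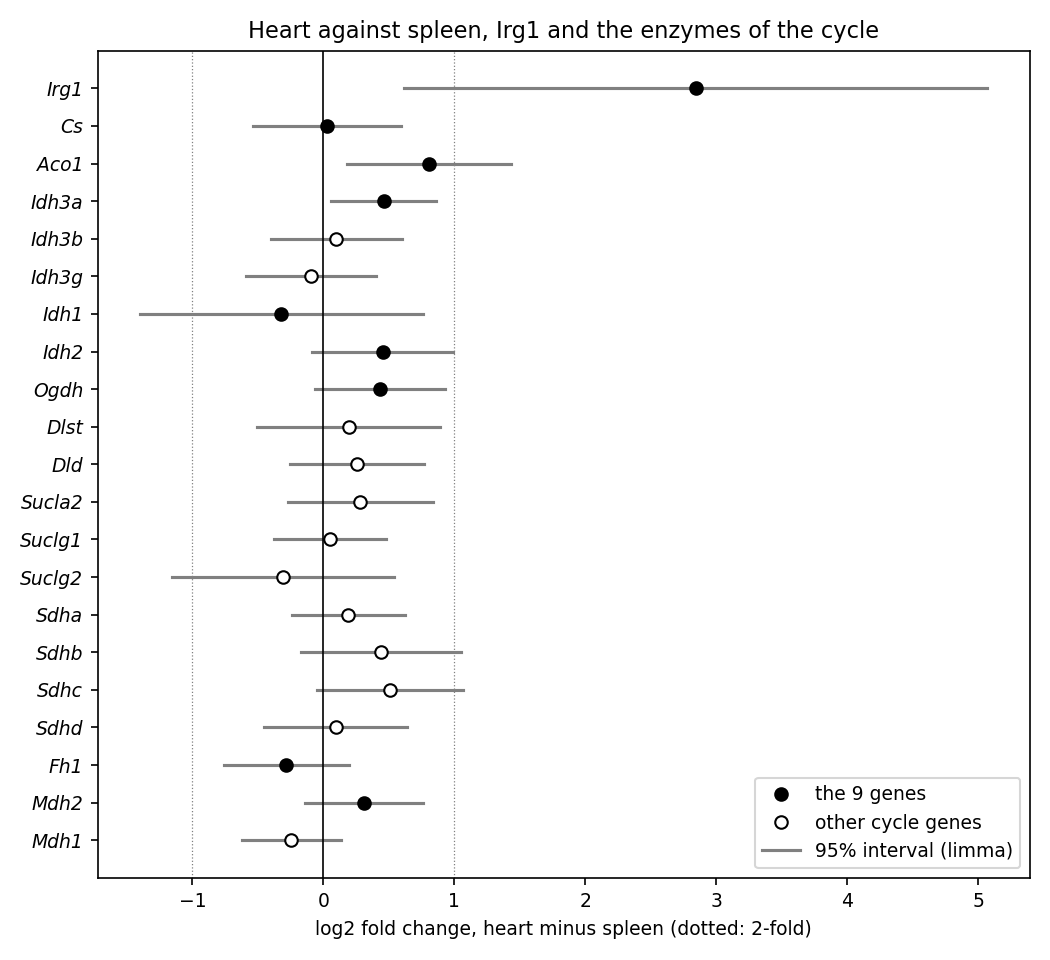
Log2 fold change, heart minus spleen, with its 95% interval from limma for Irg1 and 20 of the cycle genes in the order of the cycle. Filled points are the 9 genes described, open points the other cycle genes, and dotted lines mark 2-fold. The cycle genes drawn lie between -0.32 and 0.81 and Irg1 lies at 2.84.

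Most cycle genes shared an order among the spleens. Of these samples, spleen 1 was the lowest for 19 of the 21, against 49.3% of all genes, and spleen 4 the highest for 17, against 48.0% of all genes. The exceptions in spleen 1, named after their values were seen, were Idh3a and Suclg2, which were highest there. Irg1, too, was highest in spleen 1. With the difference taken as 1 spleen sample minus the heart mean, its median over the 21 genes was -0.48 for spleen 1, -0.23 for spleen 2 and 0.10 for spleen 4, against -0.22, -0.085 and 0.020 over all genes. All 9 genes had a larger SD in spleen than in heart, as did 84.3% of all genes. The median SD of the 9 was 0.11 in heart and 0.33 in spleen, against 0.14 and 0.41 over all genes. The 75th percentile of spleen 1, which its levels are taken relative to, was the highest of the 6 arrays (1870 units). The part of this scaling, and of the B cell, T cell and erythroid markers of spleen 1, in the order of the spleens was not tested.

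**Figure D4:**
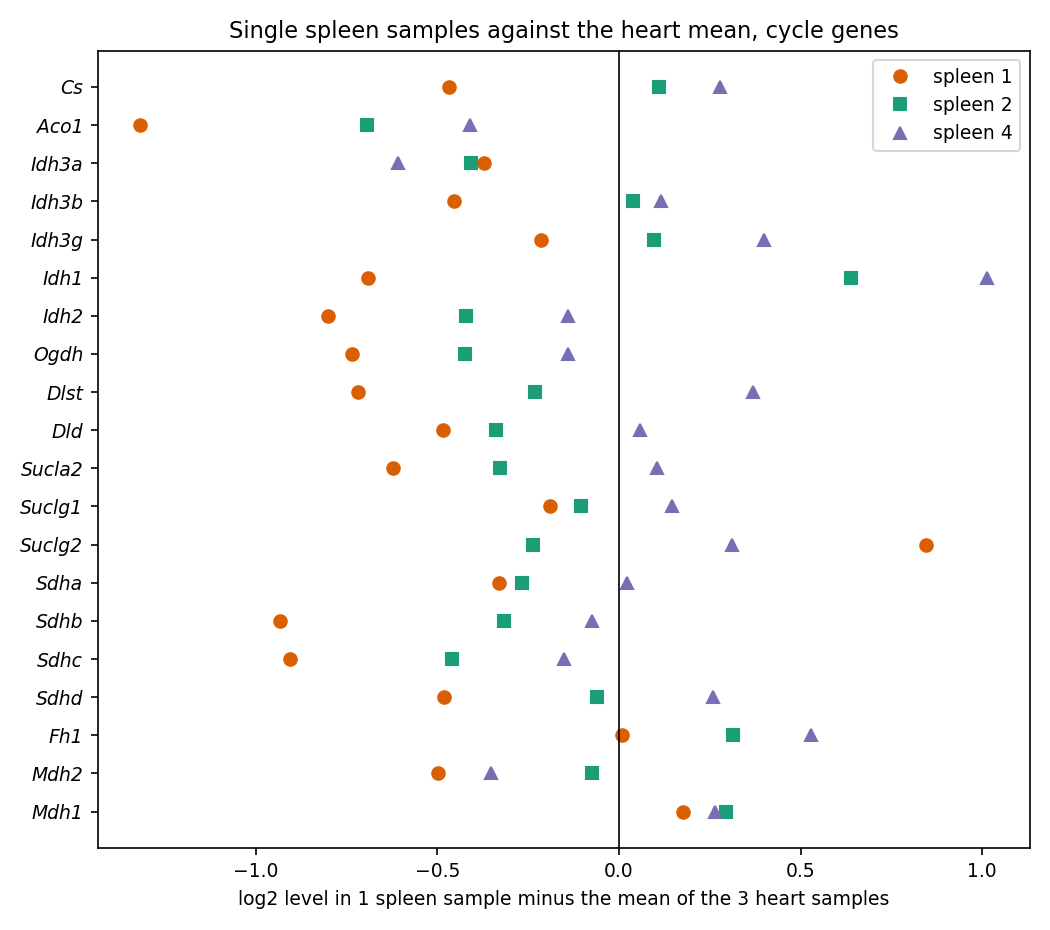
Log2 level of each of 20 cycle genes in a single spleen sample minus the mean of the 3 heart samples; negative values are lower in that spleen than in heart. Spleen 1 is the lowest of the spleens for all genes drawn except Idh3a and Suclg2.

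Genes around the cycle were read from 5 further lists, of which 68 members were tested. Over these and the other cycle genes together, 17 of 81 were called higher and 2 lower in heart. The shares over all genes were 8.88% higher and 6.52% lower. Most of the calls were in the lists on itaconate and succinate signalling and on inducers of Irg1. Of the 16 called genes named below, 6 (Got1, Atf3, Hif1a, Cd14, Tlr2 and Tnf) were called whichever single sample was left out. Without heart 1, heart 2 or heart 4 only 6, 6 and 7 list genes were called higher and 1, 0 and 0 lower. With slide as a fixed block, which sets heart 1 against spleen 4 alone, 3 were called higher (Got1, Cd14 and Egln3).

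Pyruvate enters the cycle through its carrier and the pyruvate dehydrogenase complex. Of 13 tested genes of that list, 1 was called higher and 0 lower, with a median log2 fold change of 0.083. The called gene was Ldha, the lactate dehydrogenase subunit that favours lactate, with log2 levels of 6.63, 6.60 and 6.82 in heart 1, heart 2 and heart 4, against 5.49, 5.97 and 5.66 in spleen 1, spleen 2 and spleen 4. It rose by 0.98 ± 0.20 (SE) in heart, with an adjusted p of 0.0239. Mpc1, a subunit of the mitochondrial pyruvate carrier, had a log2 fold change of 0.23 with an adjusted p of 0.558.

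Citrate export and the malate, aspartate and glutamate shuttles gave 1 call higher and 0 lower among 13 tested genes, with a median of 0.27. Got1, the cytosolic aspartate aminotransferase of the malate-aspartate shuttle, had log2 levels of 4.80, 4.84 and 4.85 in heart 1, heart 2 and heart 4, against 1.72, 1.52 and 1.0 in spleen 1, spleen 2 and spleen 4. The hearts were nearly equal and far above every spleen, and Got1 rose by 3.42 ± 0.23 (SE), with an adjusted p of 0.000931. Got2, its mitochondrial counterpart, had a log2 fold change of 0.091 ± 0.18 (SE) with an adjusted p of 0.778 and is named after its value was seen. Glud1, glutamate dehydrogenase, had a log2 fold change of 0.27 with an adjusted p of 0.631.

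Among 13 tested genes that respond to itaconate or succinate, carry them or break itaconate down, 6 were called higher and 0 lower, with a median of 1.06. Atf3, a stress-induced transcription factor, had log2 levels of 4.15, 4.32 and 4.56 in heart 1, heart 2 and heart 4, against 0.40, 0.54 and 1.95 in spleen 1, spleen 2 and spleen 4, and rose by 3.38 ± 0.43 (SE, adjusted p 0.0066). Hif1a, the hypoxia-inducible factor that succinate can stabilise, had 3.59, 3.45 and 3.19 in heart 1, heart 2 and heart 4, against 0.54, 0.22 and 1.05 in spleen 1, spleen 2 and spleen 4, and rose by 2.80 ± 0.26 (SE, adjusted p 0.0025). For both genes every heart lay more than a log2 unit above every spleen. Egln3, a prolyl hydroxylase that marks Hif1a for breakdown, rose by 2.56 ± 0.55 (SE, adjusted p 0.0282). Nfe2l2, the antioxidant regulator freed when itaconate modifies Keap1, rose by 1.47 ± 0.29 (SE, adjusted p 0.023), and Nfkbiz, an inhibitor-of-NF-kB family member whose induction itaconate limits, by 1.06 ± 0.27 (SE, adjusted p 0.0458). Nfkbiz lost its call when any single sample was left out. Rab32, a small GTPase of lysosome-related organelles, had a log2 fold change of 1.14 ± 0.36 (SE) with an adjusted p of 0.0838. The succinate receptor Sucnr1, with Oxgr1, Slc13a5 and Sugct, did not pass the filter on dim probes.

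Of 19 genes for receptors, regulators and cytokines that induce Irg1 or are induced with it, 6 were called higher and 1 lower, with a median of 0.49. Cd14, the co-receptor for lipopolysaccharide, had log2 levels of 7.40, 7.46 and 7.46 in heart 1, heart 2 and heart 4, against 1.18, 1.79 and 2.92 in spleen 1, spleen 2 and spleen 4. It rose by 5.48 ± 0.43 (SE, adjusted p 0.00161), and the Toll-like receptor Tlr2 rose by 3.00 ± 0.32 (SE, adjusted p 0.00377). The cytokine Il1b had 6.31, 6.49 and 6.86 in heart 1, heart 2 and heart 4, against 3.60, 0.60 and 2.25 in spleen 1, spleen 2 and spleen 4, so that spleen 1 was the highest spleen, as for Irg1. Il1b rose by 4.40 ± 0.71 (SE, adjusted p 0.0138) and the cytokine Tnf by 2.31 ± 0.31 (SE, adjusted p 0.00843). Irf4, an interferon regulatory factor also abundant in B and plasma cells, was lower in heart (log2 difference, heart minus spleen -2.38 ± 0.46 SE, adjusted p 0.022). Ifngr1, a chain of the interferon-gamma receptor, had a log2 fold change of 0.074 with an adjusted p of 0.923.

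Iron handling and 2-hydroxyglutarate stand beside Aco1, Idh1 and Idh2, and 3 of 10 tested genes were called higher and 1 lower, with a median of 0.17. Slc11a1, the phagosomal divalent metal transporter, rose by 2.18 ± 0.43 (SE, adjusted p 0.0232). Fth1, the ferritin heavy chain, had log2 levels of 7.82, 7.75 and 7.80 in heart 1, heart 2 and heart 4, against 6.67, 6.61 and 6.93 in spleen 1, spleen 2 and spleen 4, and rose by 1.05 ± 0.17 (SE, adjusted p 0.0144). Fbxl5, an iron-sensing ubiquitin ligase subunit that removes iron-regulatory protein, rose by 0.81 ± 0.16 (SE, adjusted p 0.0227). With the mean of its tested probes, Fbxl5 rose by 1.20 ± 0.18 (SE). D2hgdh, which oxidises D-2-hydroxyglutarate to 2-oxoglutarate, had log2 levels of -2.32, -2.55 and -2.59 in heart 1, heart 2 and heart 4, against -1.01, -1.38 and -1.06 in spleen 1, spleen 2 and spleen 4. On this brightest probe it fell by 1.34 on the log2 scale (SE 0.19, adjusted p 0.00965), with every heart below every spleen. With the mean of its tested probes, D2hgdh had a smaller log2 fold change, -0.87 (SE 0.17, limma adjusted p 0.0207). The ferritin light chain Ftl1 had a log2 fold change of 0.48 with an adjusted p of 0.153, and ferritin genes have near-identical copies that can share a probe's signal.

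Markers of cells outside the gate also differed between the tissues, as did proliferation genes, which the gate does not exclude. Their part in the values of these genes was not tested. The shares called over all genes were 8.88% higher and 6.52% lower in heart. Of 8 tested cardiomyocyte markers 4 were called higher and 0 lower, with summed signals of 1458 to 2310 units in heart and 704 to 1020 units in spleen. All 6 tested fibroblast markers were called higher, with sums of 12825 to 14605 units in heart and 192 to 320.0 units in spleen. Col3a1 and Mgp were well above background in no spleen sample, Dcn and Pdpn in 1, Col1a1 in 2 and Col1a2 in all 3. All but Col1a2 thus passed the filter through the heart arrays alone, which favoured a higher level in heart. Lum, Pdgfra, Postn and Tcf21 were on the array but not tested. Pdpn alone made up 74.7%, 39.2% and 76.9% of the sum in heart 1, heart 2 and heart 4, and without it the sums were 3237 to 7802 units in heart and 183 to 269 units in spleen. Of 12 proliferation genes 1 was called higher and 9 lower, with sums of 24890 to 29372 units in heart and 40534 to 256559 units in spleen. Cdk1 and Top2a were well above background in no heart sample and Bub1 in 1. These passed the filter through the spleen arrays alone, which favoured a lower level in heart. Of the 8 cardiomyocyte markers, Actc1 and Mb were well above background in no spleen sample, Myh6 and Myl2 in 2 of the 3, and Ckm, Myl3, Nppa and Tnni3 in all 3. Actc1, Mb, Myh6 and Myl2 thus passed the filter through the heart arrays alone, which favoured a higher level in heart. Ckm passed through the spleen arrays alone. Ckm, Nppa and Tnni3 overlapped between the tissues, with log2 fold changes of 0.19, 0.24 and -0.13.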

How the data were processed

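The authors' scanner files hold a processed signal per spot, an intensity on a linear scale already corrected for background, per the file headers. The program was Agilent Feature Extraction (version 10.7.3.1), which the submitters' processing notes name. Per the labels' protocols, RNA was amplified in a single round and labelled with a single dye. The value table that the authors deposited is on a log2 scale. Between-array differences in it followed quantile-normalized scanner signals (r at least 0.9998 over 19313 probes, slope 0.992 to 0.998). Its column medians are 0 and the baseline subtracted from each probe is unknown, so it served as an alternative.

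Control and outlier spots were left out. Log2 signals were taken relative to each array's 75th percentile, spots of a probe were averaged, and a probe was tested if well above background on all 3 arrays of either tissue. A gene was its brightest tested probe. Names were updated through accessions (26412 probes), and the file's name was kept otherwise. The two-sided test of heart against spleen used lmFit and eBayes of limma (3.58.1, under R 4.3.3), adjusted by Benjamini-Hochberg over 16365 genes, and the fit was tested on simulated data. Files were read with data.table (version 1.17.8) and figures drawn with matplotlib 3.10.9 in Python 3.11.15. The number of arrays limits the precision. In all, 20 alternatives were run.

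The 9 genes, the lists and the tests were chosen with earlier results of these data known. Named are all 9 genes and, from each list, the called members up to 5 by size of change and the brightest not called, plus the 5 genes most correlated with Irg1. Of a RefSeq promoter's bases, only those before the start were read. Protein sequences were not used here. Of the other cycle genes, 1 is counted but not reported here by name.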

Additional observations from a re-analysis of the deposited data

How the results depend on the processing

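On the main scaling, every heart lay above every spleen for Irg1. Leaving out samples or adding a fixed block therefore could not turn its sign. Irg1 stayed higher in heart under all 20 alternatives, with log2 fold changes from 2.20 to 5.0 and adjusted p from 0.00789 to 0.264. It was called with median scaling (2.97), with the replicate block (2.84, adjusted p 0.0311) and without spleen 1 (3.92). Leaving out 1 sample at a time gave 2.20 to 3.92. The count of the 9 genes called higher was accordingly 1 with median scaling, with the replicate block and without spleen 1 (Irg1 each time), and 1 without spleen 4 (Aco1), so it ran from 0 to 1 over left-out samples. None of the 9 was called lower under any alternative. All genes called numbered 2521, against 1449 with no filter on dim probes (which tests more genes), 1587 with the replicate block and 85 with slide as a fixed block, and 482 to 4229 with 1 sample left out (482, 505 and 516 without heart 1, 2 and 4, and 4229 without spleen 4). Of the list genes, 17 were called higher and 2 lower. With slide as a fixed block these were 3 and 0. With 1 sample left out they ran from 6 to 23 and from 0 to 5, with 5 lower without spleen 1 and 4 without spleen 4. Slide as a fixed block sets heart 1 against spleen 4 alone. The cause of these shifts was not tested. The same-numbered samples of the titles did not deviate together (correlations of -0.053, 0.040 and 0.0091), so the replicate block rests on a number only.

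Signs turned for genes with small differences. With quantile scaling Cs was -0.36, Mpc1 -0.16, Glud1 -0.11 and Ifngr1 -0.28, and with the authors' value table they were -0.36, -0.15, -0.11 and -0.28. With slide as a fixed block they were -0.26, -0.060, -0.28 and -0.90. Without spleen 1, Cs was -0.19, Glud1 -0.10 and Ifngr1 -0.32. With normexp background correction Cs was -0.022, and without spleen 4 Idh1 was 0.026. Over the 6 left-out samples Cs ran from -0.19 to 0.18, Idh1 from -0.83 to 0.026, Glud1 from -0.10 to 0.52 and Ifngr1 from -0.32 to 0.47. The cause was not tested.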
